A study of Mus musculus with 6 samples.

Results

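The data describe 10 genes whose products carry signals from immunoreceptors, the antigen receptors of lymphocytes and the related receptors of myeloid cells: the kinases *Syk* and *Btk*, the adaptors *Blnk*, *Lcp2*, *Lat2*, *Stap1* and *Fyb*, the co-receptor *Cd72* and the effectors *Plcg2* and *Vav1*. They were listed by name as genes that are known from lymphocytes but are also expressed by macrophages, and each was read from its probeset with the highest mean among those that carry 1 gene symbol. All 10 were found, of 19937 genes on the array, and each had a single probeset with that symbol alone. Gonadal white adipose tissue (GWAT) was taken from male ob/ob/Fsp27-/- mice, which lack both leptin and Fsp27, and from male ob/ob mice, which lack leptin only. All mice were 4 months old, fed chow and, by the methods, on a C57BL/6J background, and both genotypes share the leptin deficiency. Fsp27 is a lipid droplet protein of fat cells, and the comparison asks how its loss alters gene expression in an obese depot. There were 3 GeneChip Mouse Gene 1.0 ST arrays per genotype, called arrays 1, 2 and 3 within each, and by the methods every array carried RNA pooled from 3 mice, which the labels do not mention. The Fsp27 allele is a germline knockout, and the tissue was bulk GWAT with all its cell types.

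Immunoreceptors have no enzyme activity of their own. When they are engaged, Src family kinases phosphorylate tyrosines in the receptor tails or in associated chains such as those encoded by *Cd79a*, *Cd3e*, *Fcer1g* and *Tyrobp*, and Syk (in T cells its relative Zap70) docks there. Syk then phosphorylates scaffold proteins, which bring together Btk or another Tec kinase, phospholipase C-gamma and the exchange factor Vav, and so lead to calcium release and changes of the actin skeleton. Macrophages use the same proteins downstream of Fc receptors, integrins and C-type lectins, and macrophages are abundant in the fat of obese mice.

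Values are given on the log2 scale of the Robust Multi-array Average (RMA), where a difference of 1 stands for a doubling. The medians of the arrays lay between 6.017 and 6.099, and a value near or below them carries little signal over background. Genotypes were compared with limma over 22961 probesets with Benjamini-Hochberg adjustment, and a gene was called higher or lower if its adjusted p was below 0.05 and its log2 fold change, ob/ob/Fsp27-/- minus ob/ob, was 0.5 or more in either direction. Fold changes are followed by ± their standard error (SE) from this fit. By this rule 2158 genes (10.8%) were lower and 1910 (9.58%) higher in ob/ob/Fsp27-/- mice, 20.4% in either direction. With the arrays centred on 8 housekeeping genes the split was 1766 lower and 2582 higher. Fat cell markers were high on every array, with *Adipoq* at 12.28, 12.32 and 12.48 in ob/ob/Fsp27-/- and at 10.59, 11.22 and 11.68 in ob/ob mice. *Cidec*, which encodes Fsp27, read 11.34, 11.51 and 11.53 in ob/ob/Fsp27-/- and 11.49, 11.78 and 11.98 in ob/ob mice, and the sources used here do not say whether its probes lie in the deleted part, so this reading does not check the labels. Whether arrays of 1 genotype stand for separate breeding or hybridization batches is not given, and the p-values measure the spread between these pools.

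All 10 signalling genes were lower in ob/ob/Fsp27-/- mice, against 10.8% of all genes lower and 20.4% called in either direction. Their log2 fold changes ran from -4.61 for *Stap1* to -1.70 for *Plcg2* with a median of -2.72, whereas the median over all genes was 0.06. For each of the 10, the 3 ob/ob/Fsp27-/- arrays all lay below the 3 ob/ob arrays, as they did for 20.7% of all genes, and 46.0% of all genes had no overlap in either direction. Only 375 of the 19937 genes (1.88%) had a lower fold change than *Plcg2*, the least changed of the 10. The genes were listed with earlier results of the same arrays known, so the count is not independent evidence of a direction. In bulk tissue, fewer cells that express a gene and less RNA per cell cannot be told apart.

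**Figure D1:**
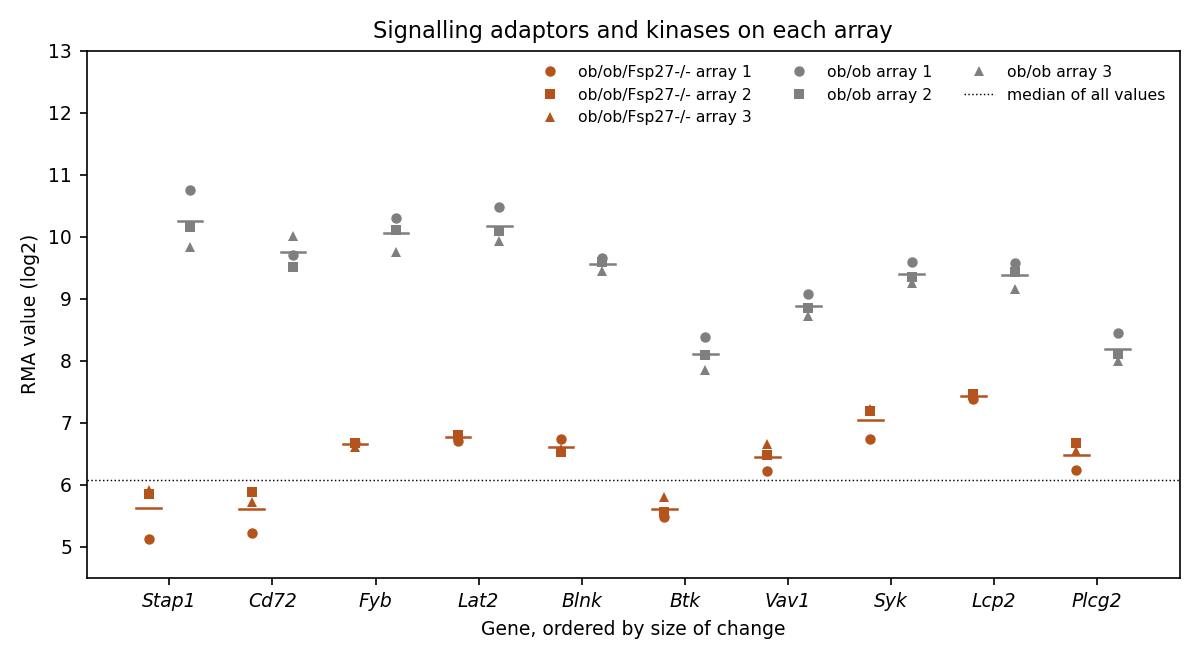
RMA values (log2, vertical axis) of the 10 signalling genes, ordered by the size of their change; each symbol is 1 array, brown for ob/ob/Fsp27-/- and grey for ob/ob mice, a bar marks the mean of 3 arrays and the dotted line the median of all values. The genotypes do not overlap for any of the 10 genes, and *Stap1*, *Cd72* and *Btk* lie below the dotted line on all 3 ob/ob/Fsp27-/- arrays.

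Promoter windows from RefSeq (build GRCm38.p6), running from 250 bases before to 50 bases after a transcription start, were at hand for 8 of the 10 genes, in 9 windows because *Syk* has a pair of starts, while *Stap1* and *Lat2* were not matched. They were searched on both strands for the letters GAGGAAGT, a motif of the myeloid and B-cell factor PU.1, for a composite motif of an ETS factor with an interferon regulatory factor (GGAA, then 2 bases of any kind, then GAAA), and for TGTGGT, a RUNX motif. The PU.1 letters and the composite share the bases GGAA and can overlap. The PU.1 letters stood in 2 of the 9 windows (22.2%) and in 1052 of all 32851 windows (3.2%). Neither the composite, found in 2.72% of all windows, nor the RUNX letters, found in 16.8%, occurred in the 9. The 2 windows with the PU.1 letters are those of *Cd72* (chr4:43454577-43454876, minus strand) and *Vav1* (chr17:57278850-57279149, plus strand). They are shown because they hold the letters, and all 10 genes were lower whether or not their windows did. The values of *Spi1*, the gene of PU.1, are given further on, and a link between it and these genes was not tested. Each runs 5′ to 3′ on the strand of its gene, with the motif in capitals, at position -49 from the start on the opposite strand in *Cd72* and at position -11 on the same strand in *Vav1*. A match of letters describes the sequence and does not show binding.
Cd72: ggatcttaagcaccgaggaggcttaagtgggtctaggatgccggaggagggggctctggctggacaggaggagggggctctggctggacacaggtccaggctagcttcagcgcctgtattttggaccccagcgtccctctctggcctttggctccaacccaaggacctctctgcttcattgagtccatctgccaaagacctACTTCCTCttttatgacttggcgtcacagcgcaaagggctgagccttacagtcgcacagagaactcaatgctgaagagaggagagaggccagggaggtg
Vav1: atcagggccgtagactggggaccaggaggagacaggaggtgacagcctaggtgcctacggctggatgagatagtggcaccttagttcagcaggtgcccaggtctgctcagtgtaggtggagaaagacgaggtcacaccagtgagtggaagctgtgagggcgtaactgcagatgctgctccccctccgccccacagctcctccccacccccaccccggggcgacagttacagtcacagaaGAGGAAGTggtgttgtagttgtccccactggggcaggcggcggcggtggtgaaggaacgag

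Both kinase genes of the set were lower. *Syk* is the kinase that binds phosphorylated receptor tails through its paired SH2 domains. It read 6.73, 7.19 and 7.22 on the ob/ob/Fsp27-/- arrays, against 9.59, 9.35 and 9.25 on the ob/ob arrays. The lowest ob/ob value lay 2.04 above the highest ob/ob/Fsp27-/- value, and the log2 fold change was -2.35 ± 0.16 (SE, limma, adjusted p = 0.000111), a level 5.11-fold lower (95% interval 3.97 to 6.58). *Btk*, the Tec family kinase that activates phospholipase C-gamma and whose loss in humans leaves almost no B cells, read 5.48, 5.57 and 5.80 in ob/ob/Fsp27-/- and 8.39, 8.09 and 7.85 in ob/ob mice. Its genotypes were again apart, by 2.04 between the nearest arrays. The log2 fold change of *Btk* was -2.49 ± 0.15 (SE, limma, adjusted p = 9.05e-05). The ob/ob/Fsp27-/- values of *Btk* lay below the medians of their arrays, so the size of this change is less certain than its direction.

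The genes of the scaffold proteins that Syk and its relatives phosphorylate were lower as well. *Blnk*, also called SLP-65, is the scaffold of the B-cell receptor and gathers Btk and phospholipase C-gamma. The arrays gave 6.74, 6.52 and 6.57 for *Blnk* in ob/ob/Fsp27-/- mice and 9.65, 9.59 and 9.44 in ob/ob mice. These are tight groups with SDs of 0.11 each (n = 3 arrays), and the log2 fold change of -2.95 had the smallest standard error of the 10 genes, 0.10 (adjusted p = 1.65e-05 from limma). *Lcp2* encodes SLP-76, which does the corresponding work in T cells, mast cells, platelets and myeloid cells. It read 7.38, 7.47 and 7.45 in ob/ob/Fsp27-/- against 9.57, 9.43 and 9.17 in ob/ob mice. The log2 fold change of *Lcp2* was -1.95 ± 0.11 (SE, limma, adjusted p = 7.34e-05), nearer to 0 than that of *Blnk*, and the 95% intervals of -2.22 to -1.69 for *Lcp2* and -3.18 to -2.72 for *Blnk* do not overlap. *Lat2*, a membrane adaptor of B cells, mast cells and myeloid cells that is also known as NTAL or LAB, read 6.71, 6.81 and 6.78 in ob/ob/Fsp27-/- and 10.48, 10.09 and 9.94 in ob/ob mice. The spread between the ob/ob/Fsp27-/- arrays was small (SD 0.05, n = 3) beside the difference, a log2 fold change of -3.40 ± 0.14 (SE, limma, adjusted p = 2.57e-05) or a level 10.6-fold lower (95% interval 8.39 to 13.3).

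The largest changes were those of *Stap1* and *Cd72*. *Stap1* encodes an adaptor with a PH and an SH2 domain that binds Tec kinases. Its values were 5.12, 5.86 and 5.92 in ob/ob/Fsp27-/- and 10.76, 10.16 and 9.83 in ob/ob mice. On every ob/ob array *Stap1* stood far above the array median and on every ob/ob/Fsp27-/- array below it. The log2 fold change of -4.61 (95% interval -5.30 to -3.93, adjusted p = 9.22e-05 from limma) ranked 7 among the 19937 genes counted from the lowest. *Cd72*, an inhibitory receptor with a C-type lectin domain that recruits the phosphatase Shp-1 (the product of *Ptpn6*) in B cells, read 5.22, 5.88 and 5.72 in ob/ob/Fsp27-/- and 9.71, 9.52 and 10.02 in ob/ob mice. It ranked 13 from the lowest, with a level 17.7-fold lower (95% interval 12.8 to 24.3, adjusted p = 3.42e-05 from limma). For both genes the ob/ob/Fsp27-/- values lay below the array medians, so that the folds rest on a level near background. *Fyb*, or ADAP, links SLP-76 to integrin activation. Its 1-symbol probeset read 6.68, 6.67 and 6.61 in ob/ob/Fsp27-/- and 10.30, 10.11 and 9.75 in ob/ob mice, a gap of 3.08 between the nearest arrays and a log2 fold change of -3.40 ± 0.14 (SE, limma, adjusted p = 2.53e-05). A pair of probesets that list *Fyb* together with *Phb* were higher and were not used for *Fyb*.

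The effector genes at the end of the chain changed by different amounts. *Plcg2*, the phospholipase C-gamma of B cells and myeloid cells, which makes the messengers that release calcium, read 6.24, 6.67 and 6.54 in ob/ob/Fsp27-/- and 8.45, 8.12 and 7.99 in ob/ob mice. The genotypes were 1.32 apart at the nearest arrays, the narrowest gap of the 10. Its log2 fold change was -1.70 ± 0.16 (SE, limma, adjusted p = 0.000362), a level 3.26-fold lower (95% interval 2.52 to 4.21). *Vav1*, the Vav exchange factor of blood cells, whose promoter window is shown above, read 6.23, 6.48 and 6.66 in ob/ob/Fsp27-/- and 9.07, 8.84 and 8.72 in ob/ob mice. This change, -2.42 ± 0.14 (SE, limma, adjusted p = 7.00e-05), was close in size to those of *Syk* and *Btk*, and the 95% intervals of the 3 genes overlap.

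Within a genotype the 10 genes varied together to some extent. Of the ob/ob arrays, array 1 was highest for 9 of the 10 genes and array 3 lowest for 9, and *Cd72*, highest on array 3, was the exception to both. Of the ob/ob/Fsp27-/- arrays, array 1 was lowest for 8 of the 10. The mean over the 10 genes was 6.25, 6.51 and 6.53 on the ob/ob/Fsp27-/- arrays and 9.60, 9.33 and 9.19 on the ob/ob arrays, so these differences within a genotype were small beside the -2.94 between the genotypes. The mean over 20 macrophage markers was 8.02, 8.19 and 8.13 on the ob/ob/Fsp27-/- arrays and 10.22, 10.16 and 10.06 on the ob/ob arrays. The mean over 9 fat cell markers was 11.89, 11.95 and 11.99 on the ob/ob/Fsp27-/- arrays and 10.88, 11.29 and 11.53 on the ob/ob arrays. The ob/ob array with the highest signalling and macrophage values thus had the lowest fat cell values, and the part of tissue composition in the order of the arrays was not tested.

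Most of these genes have a relative, or a binding partner in another cell type, that is on the array. The paralog of *Syk* in T cells and NK cells, *Zap70*, read 4.92, 5.13 and 4.89 in ob/ob/Fsp27-/- and 5.23, 5.19 and 4.93 in ob/ob mice, below the median of every array and with overlapping genotypes (log2 fold change -0.14, adjusted p = 0.422 from limma). *Lat*, the T-cell relative of *Lat2*, was lower, with a log2 fold change of -0.67 ± 0.18 (SE, limma, adjusted p = 0.0292). *Plcg1*, the widely expressed phospholipase C-gamma, went the other way. It read 9.38, 9.46 and 9.41 in ob/ob/Fsp27-/- and 8.22, 8.60 and 8.73 in ob/ob mice, a log2 fold change of 0.90 ± 0.14 (SE, limma, adjusted p = 0.0028). Among the Tec kinases, *Tec* was lower (-1.15 ± 0.22), while *Txk* of T cells (-0.23) and *Bmx* (0.22) did not pass and lay below the array medians. *Vav3* was lower, at a log2 fold change of -1.78 ± 0.14, and the broadly expressed *Vav2* did not pass (-0.26, adjusted p = 0.0745 from limma). *Clnk*, a relative of *Blnk*, and *Stap2*, the relative of *Stap1*, did not pass, with log2 fold changes of 0.09, below the array medians, and 0.43. Skap proteins bind the product of *Fyb*: *Skap1* of T cells did not pass (-0.14), and *Skap2* of myeloid cells was lower (-1.45 ± 0.14). *Grap2*, the T-cell adaptor that joins SLP-76 to Lat, did not pass either (-0.13).

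In each of 13 pairs the within-array difference between the signalling gene and its counterpart was compared between the genotypes. In 6 of the 13 the counterpart had little signal over background. *Zap70*, *Bmx*, *Txk*, *Clnk* and *Skap1* lay below the array median on all 6 arrays and *Grap2* on 5, and *Lat* lay below it on 4. The difference in these pairs follows the fall of the signalling gene itself, and its size is not read here. In 4 pairs both genes lay above the medians on every array. There the signalling gene changed by -2.60 relative to its counterpart for *Plcg2* over *Plcg1*, by -2.17 for *Vav1* over *Vav2*, by -1.95 for *Fyb* over *Skap2* and by -0.65 for *Vav1* over *Vav3*. For *Stap1* over *Stap2* and *Btk* over *Tec* the values were -5.04 and -1.34, with the signalling gene below the medians on all 3 ob/ob/Fsp27-/- arrays. With 3 arrays against 3, the exact two-sided permutation test cannot go below p = 0.1, and every pair gave p = 0.1, also after adjustment over the 13 pairs, so none of these differences can pass 0.05.

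**Figure D2:**
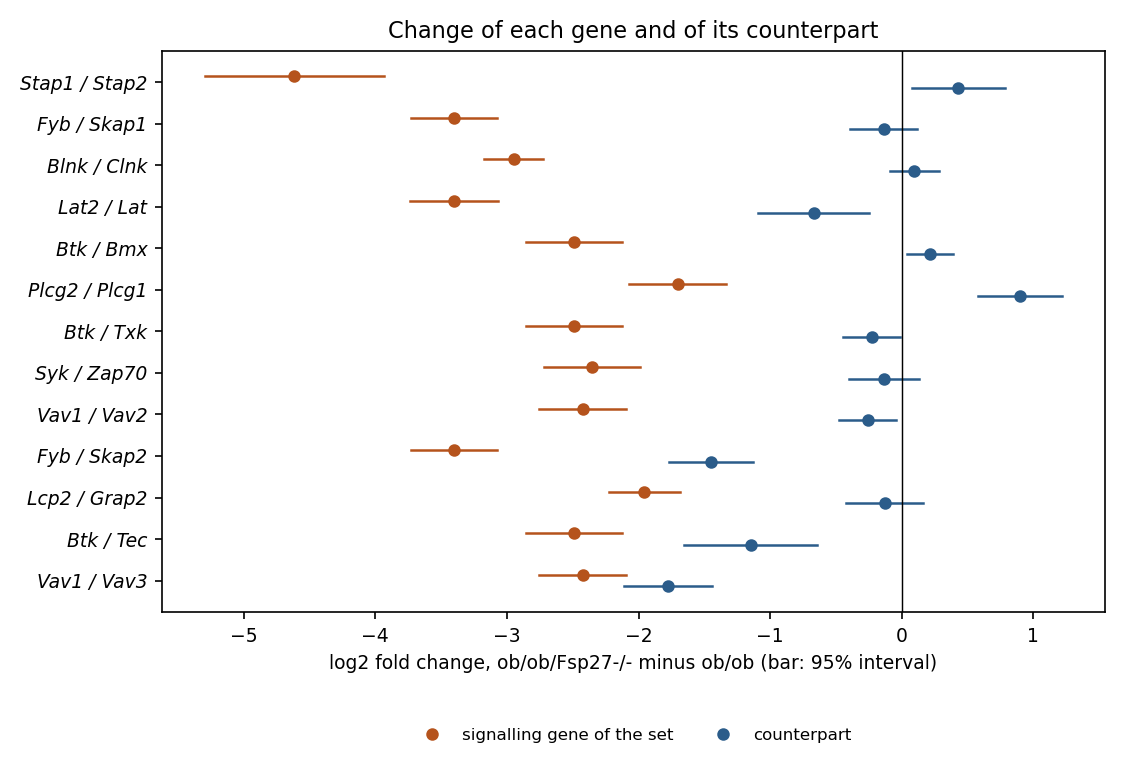
Log2 fold change of each signalling gene (brown) and of its paralog or partner (blue) in 13 pairs, ob/ob/Fsp27-/- minus ob/ob, with bars for the 95% interval from limma. The brown points lie at or below -1.70, and the blue points between -1.78 for *Vav3* and 0.90 for *Plcg1*, with *Zap70*, *Bmx*, *Txk*, *Clnk* and *Skap1* below the array medians on all 6 arrays.

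The other genes of the pathways were described from lists, beside 10.8% of all genes lower and 9.58% higher. Of 29 further genes of B-cell receptor signalling, 25 were measured, and 13 of these were lower and none higher (median log2 fold change -0.56), although 3 were higher without ob/ob/Fsp27-/- array 1 or with the arrays centred on housekeeping genes, and 1 with the filter at the median. *Prkcb*, the protein kinase C that follows phospholipase C-gamma, had a log2 fold change of -2.41 ± 0.27, the GTPase gene *Rac2* -2.10 ± 0.21, the lipid phosphatase gene *Inpp5d*, or SHIP-1, -1.87 ± 0.13, *Dapp1*, an adaptor that binds phosphoinositides, -1.69 ± 0.13, and *Pik3ap1*, or BCAP, which couples receptors to phosphoinositide 3-kinase, -1.63 ± 0.17. *Ptpn6*, whose product binds the tail of the Cd72 protein, had a log2 fold change of -1.55 ± 0.10. *Ptpn6* and *Cd22* were picked for mention after their values were seen. Of the 6 that are also B-cell markers, only *Cd22* was lower (-0.56), with a median of 0.48, and of the other 19, 12 were lower, with a median of -0.84. *Cd79a*, which encodes a signalling chain of the B-cell receptor itself, read 4.89, 5.83 and 6.73 in ob/ob/Fsp27-/- and 4.09, 4.61 and 4.87 in ob/ob mice and did not pass (log2 fold change 1.29, adjusted p = 0.0671 from limma). The difference between the 2 parts of the list was not tested.

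Of 30 further genes of T-cell receptor signalling, 28 were measured, 9 were lower and 1 was higher (median -0.23). Over all genes 10.8% were lower and 9.58% higher. The lower genes were led by *Ptprc* (log2 fold change -2.48 ± 0.22), the CD45 phosphatase of all leukocytes, and by *Ptpn22* (-2.26 ± 0.16) and *Dok2* (-2.03 ± 0.12), which restrain receptor signals. *Fyn* (-1.41 ± 0.12), a Src family kinase, and *Was* (-1.41 ± 0.14), a regulator of actin, were also lower, and *Plcg1* was the gene that was higher. Of the 12 measured genes that are also T-cell markers, 1 was lower, *Lat*, with a median of -0.19. Of the other 16, 8 were lower and 1 higher, with a median of -0.37. The difference between these parts of the list was not tested. *Cd3e* read 6.63, 6.91 and 6.74 in ob/ob/Fsp27-/- and 7.24, 7.06 and 6.74 in ob/ob mice, with overlapping genotypes (adjusted p = 0.244 from limma). *Cd3g* had a log2 fold change of -0.78, also with overlapping genotypes, and did not pass (adjusted p = 0.124 from limma). It lay below the array median on 4 of the 6 arrays, and *Cd3d* (0.05) on all 6.

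The genes of receptors and partners through which these proteins work in myeloid cells were mostly lower too. Of 15 measured genes of 16 listed, 12 were lower and 1 higher (median -2.14), against 10.8% and 9.58% of all genes. *Tyrobp*, the adaptor chain DAP12 that recruits Syk, read 8.51, 8.64 and 8.80 in ob/ob/Fsp27-/- and 11.60, 11.44 and 11.55 in ob/ob mice, a log2 fold change of -2.88 ± 0.10 (SE, limma, adjusted p = 1.65e-05). *Fcer1g*, the common gamma chain of Fc receptors, had a log2 fold change of -2.53 ± 0.08. The integrin genes *Itgb2* and *Itgam*, which together form Mac-1, had log2 fold changes of -3.50 ± 0.20 and -3.30 ± 0.21, and that of *Clec7a*, the beta-glucan receptor dectin-1, was -2.75 ± 0.14. *Fcgr4*, an activating Fc receptor gene, had a log2 fold change of -2.82 ± 0.23. The gene that was higher, *Oscar*, picked for mention after its values were seen, is a collagen receptor paired with the Fc receptor gamma chain (0.66 ± 0.10), and its values lay near the array medians. *Clec4n* (-0.49) and the Src family gene *Fgr* (-0.46) did not pass.

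**Figure D3:**
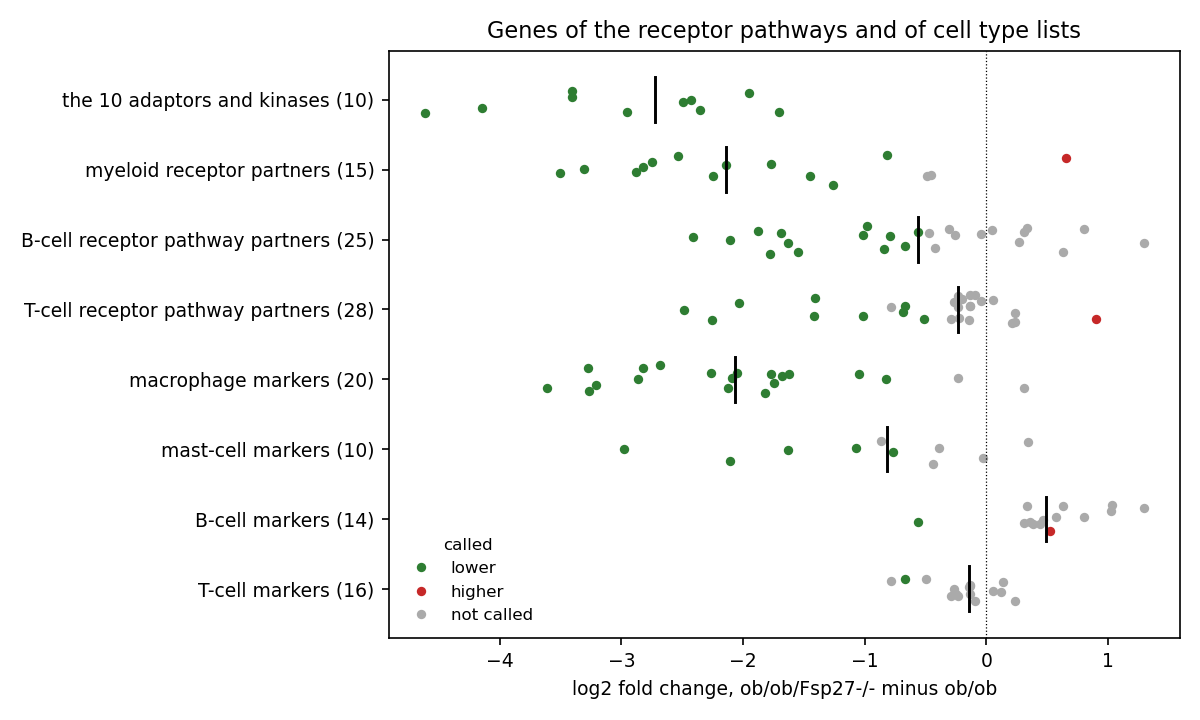
Log2 fold change (horizontal axis, ob/ob/Fsp27-/- minus ob/ob) of each measured gene in 8 lists, with 1 point per gene, green for lower, red for higher and grey for genes not called, and a black bar at the median of the list; the number of measured genes is in brackets. The signalling genes and the myeloid and macrophage lists lie mostly left of -1, while the B-cell markers lie mostly right of 0 (median 0.49) and the T-cell markers around 0 (median -0.14).

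Markers of the cell types that could carry these genes were set beside them. Their counts stand against 10.8% of all genes lower and 20.4% called in either direction. Of 20 macrophage markers 18 were lower and none higher (median -2.07, range -3.61 to 0.31), and the exceptions were *Cd163* and *Timd4*. *Timd4* (0.31) lay below the array median on 5 of the 6 arrays, and whether its low signal bears on this was not tested. *Adgre1* (F4/80), *Cd68* and *Csf1r*, which define macrophages, had log2 fold changes of -3.21, -2.68 and -1.74. Mast cells also use Syk, Btk, Lat2 and SLP-76, and 5 of 10 mast cell markers were lower (median -0.82), among them *Cpa3* at 6.75, 5.92 and 7.23 in ob/ob/Fsp27-/- and 10.11, 9.97 and 8.75 in ob/ob mice. The defining *Fcer1a* (-0.86, adjusted p = 0.0996) and *Ms4a2* (-0.44, adjusted p = 0.12 from limma) did not pass. *Ms4a2* lay below the array median on all 6 arrays and *Fcer1a* on 5, and whether this low signal bears on their calls was not tested. Of 14 B-cell markers 1 was lower, *Cd22*, and 1 higher, *Tnfrsf13c*, the BAFF receptor gene (0.52 ± 0.13), with a median of 0.49. For 8 of the 14, both genotype means lay at or below the median of all values. The defining *Pax5* (0.39, adjusted p = 0.0214 from limma) fell short of the fold threshold and lay below the array median on 5 arrays. The mean over the 14 B-cell markers was 5.50, 6.01 and 6.43 on the ob/ob/Fsp27-/- arrays and 5.39, 5.41 and 5.51 on the ob/ob arrays, so ob/ob/Fsp27-/- array 3 stood highest. *Ms4a1* (CD20) read 5.04, 6.18 and 7.19 in ob/ob/Fsp27-/- and 4.98, 5.15 and 5.22 in ob/ob mice and did not pass (adjusted p = 0.158 from limma). Of 16 T-cell markers 1 was lower, *Lat*, and none higher (median -0.14), and 12 of the 16 had both genotype means at or below the median of all values. The part that macrophages, mast cells and lymphocytes have in the signalling genes was not tested.

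Each signalling gene was then set against the mean of the 20 macrophage markers on the same array, a comparison chosen after the values were known. That mean was lower by 2.03 on the log2 scale in ob/ob/Fsp27-/- mice. *Stap1* and *Cd72* changed by -2.58 and -2.11 relative to it, *Fyb* and *Lat2* by -1.37 each, *Blnk* by -0.92, and *Btk*, *Vav1* and *Syk* by -0.46, -0.39 and -0.32. The genotypes did not overlap for these 8 genes, and on the same scale 0.792% of all genes lay lower without overlap in ob/ob/Fsp27-/- mice and 97.8% higher, because the marker mean itself was lower. The markers ranged from -1.58 to 2.34 relative to their own mean, so 2 of the 10 genes, *Stap1* and *Cd72*, lay below every marker, and the other 8 lay within the range of the markers. *Lcp2* (0.08, exact p = 0.4) and *Plcg2* (0.33, exact p = 0.2) overlapped between the genotypes once the marker mean was taken off. The exact two-sided permutation test gave p = 0.1, the smallest that 3 against 3 arrays allow, for the other 8 genes (0.125 after adjustment over the 10).

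**Figure D4:**
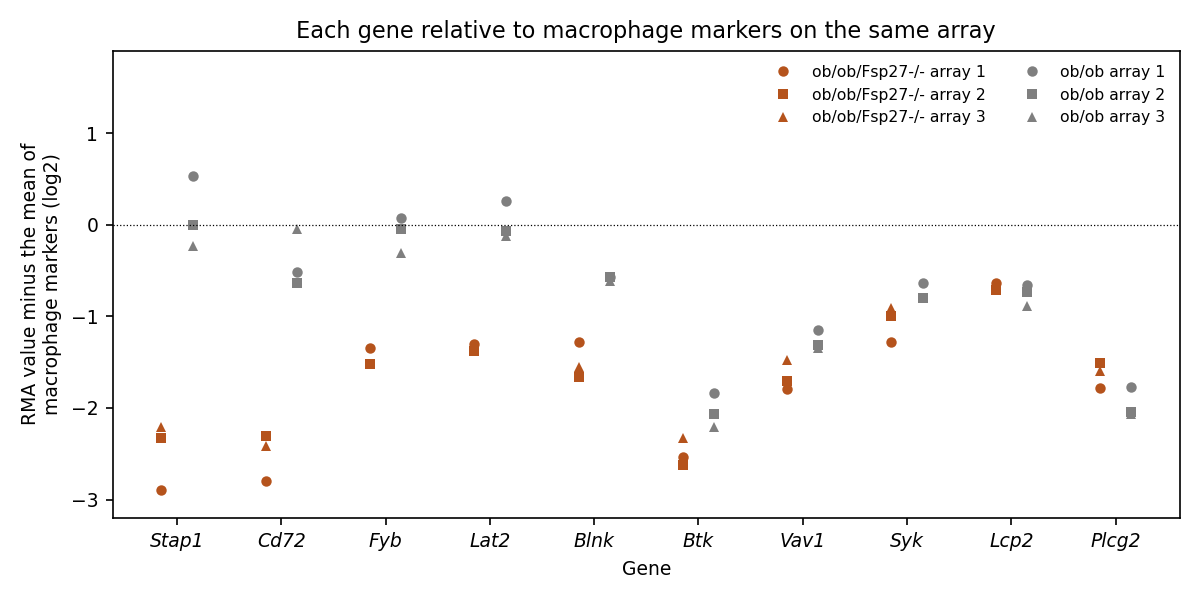
RMA value of each signalling gene minus the mean of 20 macrophage markers on the same array (log2, vertical axis), with 1 symbol per array, brown for ob/ob/Fsp27-/- and grey for ob/ob mice. The genotypes overlap for *Lcp2* and *Plcg2*, while *Stap1* and *Cd72* lie more than 1.5 below their ob/ob values on every ob/ob/Fsp27-/- array.

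The genes most like the average of the 10 were found by the root-mean-square difference over the 6 arrays after each gene was centred on its own mean. The nearest 5 outside the set were *Fam111a* (0.0603), *Tbxas1* (0.0775), *S100a4* (0.0786), *Spi1* (0.0798) and *Cd180* (0.0819). *Tbxas1* encodes thromboxane synthase, *S100a4* a calcium-binding protein, *Spi1* the transcription factor PU.1 and *Cd180* a Toll-like receptor relative of B cells and macrophages. *Spi1* read 7.15, 7.32 and 7.40 in ob/ob/Fsp27-/- and 10.62, 10.24 and 10.23 in ob/ob mice, a log2 fold change of -3.08 ± 0.13 (SE, limma, adjusted p = 2.71e-05). Of the 10 genes themselves *Blnk* was nearest to the average (0.167) and *Stap1* farthest (0.866). With 6 arrays in 2 groups this measure follows mostly the size of the genotype difference.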

How the data were processed

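GWAT RNA was measured on 6 arrays, 3 per genotype. The values that the authors deposited are log2 intensities, obtained by background adjustment, quantile normalization and summary per transcript cluster with RMA in R/Bioconductor, whose versions the sources do not give. Of 34760 probesets, 21640 carry 1 gene symbol, 1321 several and 11799 none. The 22961 with a symbol were tested, and for each gene the 1-symbol probeset with the highest mean was reported.

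Testing used limma 3.58.1 (lmFit, then eBayes) in R 4.3.3 without covariates, and p-values were adjusted over every tested probeset. Lists were described by counts from this fit and carry no test of their own. The 10 genes, the 14 lists (200 entries, from general knowledge), the pairs and the motifs were chosen with earlier results of these data known. Named genes are the 10, their counterparts, up to 6 called genes of largest change and 4 genes not called per list, defining cell markers and the 5 genes of nearest pattern. Listed genes that were not matched were not analysed here. Of these steps, only the limma fit and the calling rule were first run on simulated data with known changes. Arrays carry no read depth, and their number limits the precision. The sources give no slide or scan date, and neither background correction nor a filter on detection could be redone from RMA values. Alternatives were 2 filters on low means, all probesets, other scalings of the arrays, other variance models, other fold thresholds, means of a gene's probesets, and each array left out in turn. Plots were made in matplotlib 3.10.9 (python 3.11.15).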

Additional observations from a re-analysis of the deposited data

Results flagged for a closer look

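A pair of probesets outside the comparison list *Fyb* together with *Phb*, the gene of the mitochondrial protein prohibitin, and were left out because a probeset with several symbols names no single gene. They carried a signal that was higher in ob/ob/Fsp27-/- mice, opposite to the 1-symbol probeset of *Fyb*. Probeset 10380551 read 10.16, 10.26 and 10.36 in ob/ob/Fsp27-/- and 8.83, 9.15 and 9.31 in ob/ob mice (log2 fold change 1.17, adjusted p = 0.000896 from limma). Probeset 10422776 read 9.87, 10.03 and 10.12 in ob/ob/Fsp27-/- and 8.76, 8.98 and 9.19 in ob/ob mice (log2 fold change 1.03, adjusted p = 0.00128 from limma). The table holds 0 probesets for *Phb* alone.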

How the results depend on the processing

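All 10 signalling genes were lower at every alternative run, including a log2 fold threshold of 1 and the fits without each array in turn, where the count stayed at 10. *Plcg2*, the least changed, had log2 fold changes from -1.80 to -1.57 over its 16 alternatives (highest adjusted p = 0.00279), and *Stap1* from -4.82 to -4.36 (highest adjusted p = 0.00114), all from limma. At a threshold of 1, the called genes numbered 1607 over all genes, 8 in the B-cell receptor list and 6 in the T-cell receptor list, since a stricter threshold calls fewer genes. Leaving out each array in turn gave 3589 to 4466 called genes in all, 12 to 15 in the B-cell receptor list, 8 to 11 in the T-cell receptor list and 13 in the myeloid list each time. Without ob/ob/Fsp27-/- array 1, and with the arrays centred on housekeeping genes, 3 genes of the B-cell receptor list were higher, and 1 was with the filter at the median. That centring moved the median of all genes to 0.16. Under the alternatives 247 values kept their direction and side of the threshold or stayed within 1.5 times the count, and the 3 counts at the threshold of 1 did not. No paired analysis was possible because the labels give the genotypes no shared replicate numbers.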

Other observations

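Markers of other blood cells that use Syk, SLP-76 or Btk were counted too, beside 20.4% of all genes called in either direction. These lists are short, and whether their shares differ from that of all genes was not tested. Among 8 NK-cell markers none was called by limma (median log2 fold change -0.09), all had both genotype means at or below the median of all values, and *Gzmb* had an unadjusted p under 0.05 (-0.32, adjusted p = 0.04, short of the fold threshold). Of 8 neutrophil markers 1, *S100a8*, was higher (0.83, standard error 0.20), while *Ly6g* and *Mpo* lay below the array medians. Of 7 dendritic cell markers 2 were lower, *Clec9a* (-0.68) and *Xcr1* (-0.56), and the list had a median of -0.22 and reached 0.28. The defining *Flt3* (-0.22) did not pass. *Clec9a*, *Xcr1* and *Flt3* lay below the array median on 4, 5 and 6 of the 6 arrays. Of 5 platelet and megakaryocyte markers 1 was lower, *Pf4* (-1.58), which macrophages express as well, and *Itga2b* (-0.01) and *Gp9* (0.07) did not pass. Of 9 adipocyte markers 5 were higher and none lower (median 0.85), and of 8 housekeeping genes none was called (median -0.12), with 5 at an unadjusted p under 0.05 in limma.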
